A study of Mus musculus with 4 samples.

Results

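The Cdkn2 locus and the main regulators of G1 were described as 10 genes of the 35905 genes summed from the deposited tables: Cdkn2a, Cdkn2b and Mtap, which lie side by side on mouse chromosome 4, and Cdk4, Cdk6, Ccnd1, Ccnd2, Ccnd3, Rb1 and E2f1, which act on the passage from G1 into S phase. They were chosen by name and by their measured levels in these libraries, above all the absence of reads at Cdkn2a and Cdkn2b. Their levels are therefore given as a description without a test. RNA was sequenced from cells of the mouse line LLC (Lewis lung carcinoma), which grew for 4 weeks under the flank skin of C57BL/6 hosts and were sorted as TdTomato-positive and CD45-negative. PAD4-DN hosts carried Padi4 fl/fl and Mrp8Cre, a driver active in neutrophils and other myeloid cells, with 2 libraries. WT hosts carried the same Padi4 fl/fl alleles without Cre, also with 2 libraries. The engineered alleles were in the host and not in the implanted line, all tumours came from that single line, and the labels do not say whether the 2 libraries of a group came from separate animals. P-values therefore measure only the spread between these libraries, which may be technical. PAD4-DN 1 stood apart from the other libraries in carrying most RNA of leukocyte and erythroid markers. In fibroblast markers PAD4-DN 1 and WT 2 were both above PAD4-DN 2 and WT 1, by summed and by median level, though not in Dcn and Lum.

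The Cdkn2 locus is one of the main brakes on the cell cycle. Cdkn2a gives rise to p16Ink4a, which binds Cdk4 and Cdk6 and keeps them from pairing with D-type cyclins, and, from a separate start and another reading frame, to p19Arf, which holds back the p53 antagonist Mdm2. Cdkn2b encodes p15Ink4b, a close relative of p16Ink4a. Mtap encodes methylthioadenosine phosphorylase, an enzyme of methionine salvage that is often lost together with the locus in human tumours. D-type cyclins with Cdk4 or Cdk6 phosphorylate the retinoblastoma protein Rb1, which then releases E2f1 and related factors to switch on genes of DNA synthesis.

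The start regions of the silent genes and of their transcribed neighbour Mtap are shown because the contrast in reads falls between these start sites. The sequences are RefSeq promoters on build GRCm38.p6 (250 bases before to 50 after each start), 300 bases each, written 5′ to 3′ on the gene's own strand. That build is earlier than the GRCm39 named in the submitters' processing notes, and the deposited tables hold no coordinates, so the sequences were matched to genes by symbol. Each entry was then labelled by the nearest annotated transcript start. For the p19Arf entry this was Cdkn2a-202, at 34 bases, and for the p16Ink4a entry Cdkn2a-201, at 0 bases. Capitals mark E2F-type sites (TTTCCCGC, TTTCGCGC, TTTGCCGC or TTTGGCGC on either strand) and GC boxes (GGGCGG on either strand). In these windows the motifs did not overlap.
Cdkn2a p19Arf start, chr4:89294570-89294869, minus strand: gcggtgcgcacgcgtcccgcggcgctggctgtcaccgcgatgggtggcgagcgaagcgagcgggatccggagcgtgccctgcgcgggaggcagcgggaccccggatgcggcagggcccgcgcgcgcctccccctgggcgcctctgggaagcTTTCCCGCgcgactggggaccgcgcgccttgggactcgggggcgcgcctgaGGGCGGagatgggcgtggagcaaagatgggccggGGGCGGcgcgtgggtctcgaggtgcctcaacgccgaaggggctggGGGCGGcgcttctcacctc
Cdkn2a p16Ink4a start, chr4:89282143-89282442, minus strand: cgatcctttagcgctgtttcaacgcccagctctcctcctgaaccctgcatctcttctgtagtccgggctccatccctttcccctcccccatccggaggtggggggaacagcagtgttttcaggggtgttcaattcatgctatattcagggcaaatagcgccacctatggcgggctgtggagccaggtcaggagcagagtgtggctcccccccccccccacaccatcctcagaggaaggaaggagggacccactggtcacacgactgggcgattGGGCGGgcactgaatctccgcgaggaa
Cdkn2b start, chr4:89310983-89311282, minus strand: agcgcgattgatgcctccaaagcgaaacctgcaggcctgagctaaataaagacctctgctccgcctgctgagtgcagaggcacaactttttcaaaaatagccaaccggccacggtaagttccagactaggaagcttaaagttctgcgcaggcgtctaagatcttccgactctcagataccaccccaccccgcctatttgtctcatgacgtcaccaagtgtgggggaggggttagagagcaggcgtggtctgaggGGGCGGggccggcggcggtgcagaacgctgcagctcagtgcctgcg
Mtap start, chr4:89137120-89137419, plus strand: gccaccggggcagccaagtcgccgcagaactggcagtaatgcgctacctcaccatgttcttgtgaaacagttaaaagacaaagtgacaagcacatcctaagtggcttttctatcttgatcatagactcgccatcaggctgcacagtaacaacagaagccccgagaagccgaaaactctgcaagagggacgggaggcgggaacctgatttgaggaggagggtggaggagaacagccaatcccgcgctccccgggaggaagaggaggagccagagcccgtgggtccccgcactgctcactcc
The p19Arf window held 1 E2F-type site, at position −99 from the start, and 3 GC boxes, with a GC content of 77.0%. The p16Ink4a and Cdkn2b windows held 1 GC box each and no E2F-type site, and the Mtap window held neither motif. The Mtap entry lies 248 bases from the annotated start of Mtap-201, the transcript that carried its reads. Of all 32851 RefSeq promoters of this length, 2.3% held an E2F-type site and 35.7% a GC box. A match is a description of letters and not evidence of binding.

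Cdkn2a had 0 estimated counts in all 4 libraries, PAD4-DN 1 and 2 and WT 1 and 2. Both of its annotated transcripts were at 0, Cdkn2a-201, which reads out p16Ink4a, and Cdkn2a-202, which reads out p19Arf. A count of 0 allows up to 3 counts in a library, which corresponds to 0.324 and 0.276 TPM in PAD4-DN 1 and 2 and to 0.266 and 0.256 TPM in WT 1 and 2. TPM states a transcript's abundance relative to the library, scaled for its length, so that levels of different genes can be compared. These limits cover counting error only, since amplified reads that carry no molecular identifier can be copies of 1 molecule. Of 31-base stretches in the Cdkn2a transcripts, 1139 in number, none also occurred in a transcript of another gene, so no near-identical copy was found that could have taken its reads. The p16Ink4a and p19Arf transcripts shared 548 such stretches, and 274 and 317 belonged to each alone in this order.

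Cdkn2b had 0 counts in PAD4-DN 1 and 2 and in WT 1, and 1 count in WT 2, which is 0.047 TPM. An exact 95% Poisson interval for that 1 count runs from 0.0253 to 5.57 counts. All 1360 of its 31-base stretches were its own. Silence of this kind was not rare among genes, since 4254 of 21850 protein-coding genes (19.5%) had 0 estimated counts in all 4 libraries. RNA counts alone cannot tell a lost gene from one that is present and not transcribed, and genomic DNA was not analysed here.

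Mtap, the next protein-coding gene beside Cdkn2a, had 2953 and 4063 counts in PAD4-DN 1 and 2 and 3931 and 4320 counts in WT 1 and 2. Its level was 79.7 and 93.6 TPM in the PAD4-DN libraries, against 89.4 and 92.7 TPM in the WT libraries, above that of 94.0% of protein-coding genes. Within each library Mtap was at least 246-fold above the highest Cdkn2a level that 0 counts allow, the smallest of the 4 ratios being that of PAD4-DN 1. Nearly all of the Mtap signal lay in the full-length coding transcript Mtap-201, which took between 98.2% (WT 2) and 99.5% (PAD4-DN 1) of the gene's TPM.

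**Figure D1:**
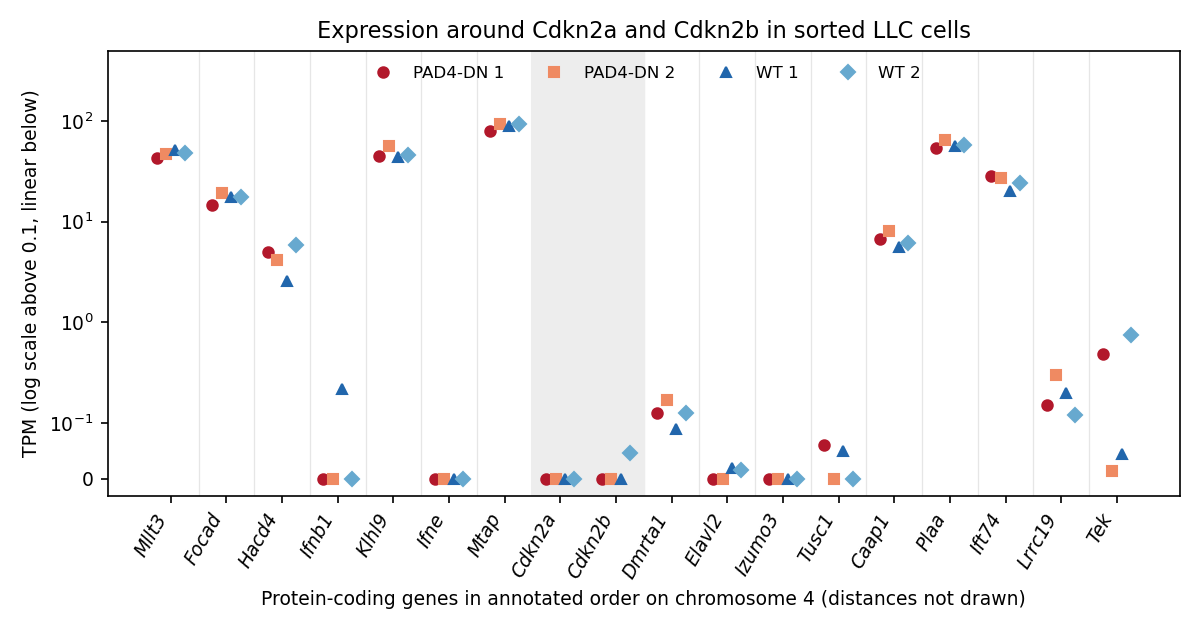
TPM of protein-coding genes in their annotated order on chromosome 4, with the 4 libraries as separate symbols and the axis logarithmic above 0.1. Mtap lies at 79.7 to 93.6 TPM in all libraries, while the shaded Cdkn2a and Cdkn2b stay at 0 apart from 1 count of Cdkn2b in WT 2.

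From Mllt3 to Tek the annotation of that stretch of chromosome 4 places 51 protein-coding genes, of which 50 were in the deposited tables. Of these 50, 20 had 0 counts in every library and 8 had a mean of at least 1 TPM. Of the 50, 17 carry an interferon symbol, 13 of these had 0 counts throughout, and none exceeded 2 counts over the 4 libraries. On the Mtap side the transcribed genes were Klhl9, an adaptor of a ubiquitin ligase (45.3 and 56.9 TPM in PAD4-DN, 43.5 and 45.7 TPM in WT), Hacd4, Focad and Mllt3. Mllt3, a chromatin reader fused in some leukaemias, was at 42.5 and 47.5 TPM in PAD4-DN and 51.3 and 47.9 TPM in WT. Focad, a focal adhesion protein, was at 14.6 and 19.2 TPM in PAD4-DN and 17.7 and 17.5 TPM in WT. Hacd4, an enzyme of very long fatty acid synthesis, was the least abundant of them, at 5.05 and 4.13 TPM in PAD4-DN and 2.57 and 5.84 TPM in WT.

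On the Cdkn2b side reads were sparse over the next protein-coding genes. Dmrta1, a transcription factor gene, had 7.1 and 11.0 counts in PAD4-DN and 6.0 and 9.0 counts in WT, so it was low in every library but not at 0. Elavl2, a neuronal RNA-binding protein, had 0 and 0 counts in PAD4-DN and 1 and 1 in WT. Tusc1 had 1 and 0 counts in PAD4-DN and 1 and 0 in WT, and Izumo3 had none. Between Elavl2 and Izumo3 the processed pseudogene Gm12671, named after its values were seen, was listed at 364 and 362 TPM in PAD4-DN and at 441 and 380 TPM in WT, the highest level of the stretch. Processed pseudogenes can share reads with the gene they were copied from, so its level is uncertain. The next protein-coding genes with steady reads were Caap1 (6.73 and 8.12 TPM in PAD4-DN, 5.61 and 6.11 TPM in WT), Plaa (54.2 and 65.1 TPM in PAD4-DN, 56.1 and 58.0 TPM in WT) and Ift74 (28.6 and 27.2 TPM in PAD4-DN, 20.3 and 24.2 TPM in WT). At the far end, Lrrc19 had at most 13.2 counts, and Tek, an endothelial receptor, had 30.0 and 1.0 counts in PAD4-DN and 3.0 and 29.0 in WT. Back on the Mtap side, Ifnb1, which lies between Hacd4 and Klhl9, had 2 counts, both in WT 1. No neighbour that could be tested had an unadjusted p under 0.05.

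Mtap and the 7 other genes were all transcribed, and the order of these 8 by level was the same in all libraries. By mean TPM the order was Cdk4, Ccnd1, Mtap, Ccnd2, Ccnd3, Cdk6, E2f1 and Rb1, followed by Cdkn2b and Cdkn2a. For all 7 neighbouring pairs among the first 8 of these genes, the lowest library of the higher gene lay above the highest library of the lower gene. Only Cdkn2b and Cdkn2a could not be separated. Each of the first 8 genes except E2f1 and Rb1 ranked above at least 83.1% of protein-coding genes in mean TPM.

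**Figure D2:**
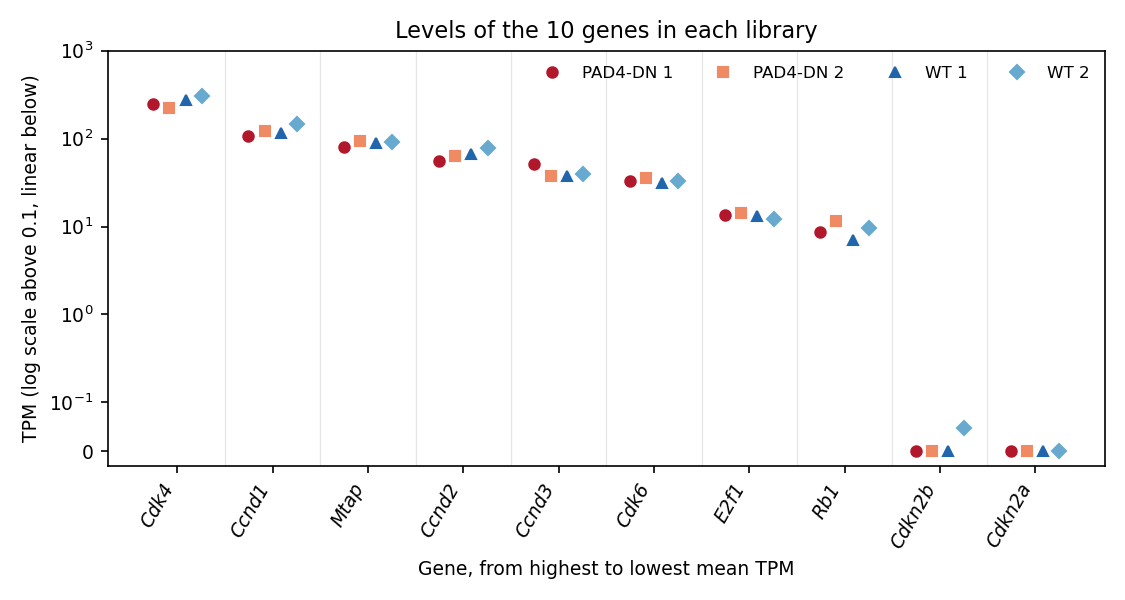
TPM of the 10 genes in each library, ordered by mean level, with the axis logarithmic above 0.1. Cdk4 is highest at 226 to 304 TPM, Rb1 is the lowest of the transcribed genes at 7.03 to 11.5 TPM, and Cdkn2a is at 0 throughout.

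Among the D-type cyclins, which carry mitogen signals to the cell cycle, Ccnd1 was the most abundant. Ccnd1 was at 106 and 122 TPM in PAD4-DN and at 117 and 147 TPM in WT. Ccnd2 was at 55.1 and 62.8 TPM in PAD4-DN and at 66.5 and 78.4 TPM in WT. Ccnd3 was at 51.7 and 37.9 TPM in PAD4-DN and at 37.6 and 39.1 TPM in WT, so that PAD4-DN 1 stood above the other 3 libraries. All 3 cyclins were thus expressed together in each library. Ccnd1 made up 49.9% and 54.9% of summed D-type cyclin TPM in PAD4-DN and 52.98% and 55.5% in WT.

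The makeup of the D-type cyclins differed by a few percentage points between the groups. Ccnd2 took 27.0 ± 1.6% in PAD4-DN and 29.9 ± 0.24% in WT (mean ± SD, n = 2 each; exact two-sided permutation p = 0.333). Ccnd3 took 20.6 ± 5.1% in PAD4-DN and 15.9 ± 1.5% in WT (n = 2 each; exact two-sided permutation p = 0.333). For both shares the groups did not overlap, for Ccnd3 by the margin of 16.99% in PAD4-DN 2 and 16.98% in WT 1, and 2 libraries against 2 cannot give a p below 0.333. Without PAD4-DN 1, the library with the highest Ccnd3 share, the difference for Ccnd3 was 1.09 points in place of 4.72. In shares of estimated counts the groups overlapped for Ccnd3. Ccnd1 overlapped between the groups (exact two-sided permutation p = 0.667, n = 2 each).

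**Figure D3:**
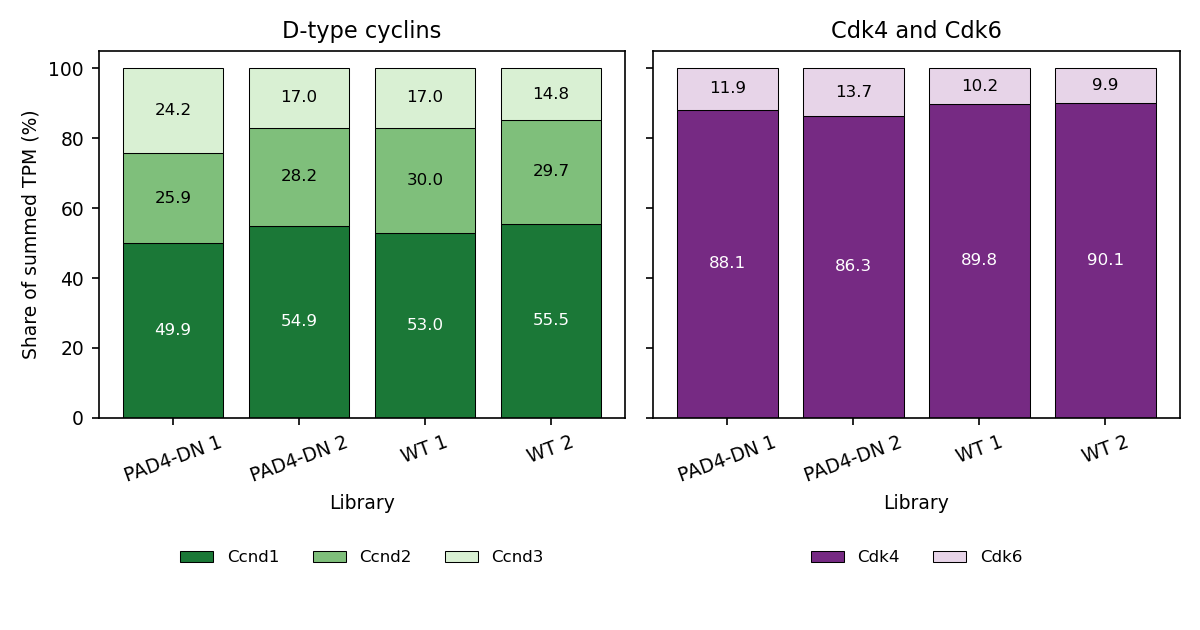
Share of summed TPM held by each D-type cyclin (left) and by Cdk4 and Cdk6 (right), as stacked bars that add up to 100% in each library. Ccnd1 holds 49.9% to 55.5% of the cyclins and Cdk4 86.3% to 90.1% of the kinases.

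Of the kinases that D-type cyclins activate, Cdk4 was far above Cdk6. Cdk4 was at 246 and 226 TPM in PAD4-DN and at 275 and 304 TPM in WT, and ranked above 98.4% of protein-coding genes. Cdk6 was at 33.1 and 35.8 TPM in PAD4-DN and at 31.1 and 33.3 TPM in WT. The ratio of Cdk4 to Cdk6 in TPM was 7.43 and 6.30 in PAD4-DN, against 8.83 and 9.13 in WT. Both PAD4-DN libraries were therefore below both WT libraries, and Cdk6 held 11.9% and 13.7% of the summed kinase TPM in PAD4-DN and 10.2% and 9.87% in WT (difference 2.76 points, n = 2 each; exact two-sided permutation p = 0.333, the smallest possible).

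Cdk4 reads were spread over several annotated transcripts. The coding transcript Cdk4-201 held 39.9% and 44.2% of the gene's TPM in PAD4-DN and 37.2% and 37.3% in WT, and Cdk4-205 held 32.4% to 35.8% over the libraries. Cdk4-209, a short transcript with a retained intron, was at 41.1 and 34.0 TPM in PAD4-DN and at 64.7 and 69.2 TPM in WT. It held 16.7% and 15.1% of Cdk4 TPM in PAD4-DN and 23.5% and 22.8% in WT, and the groups did not overlap. By gene level 32.8% of all tested genes did not overlap in either direction, and the share over transcripts was not computed. The Cdk4-209 values rest on 142 and 140 estimated counts in PAD4-DN and 279 and 301 in WT, at a length of 468 bases. With Cdk4-201 and Cdk6-202 alone, the transcript of each gene with most counts, Cdk6 held 20.5 ± 2.6% in PAD4-DN and 17.4 ± 0.45% in WT (SD, n = 2 each). That comparison was chosen after the data were seen. Of the 31-base stretches of Cdk4-201, 31.3% also occurred in other genes, mostly in the overlapping Tspan31 on the opposite strand. The library kit marks strand, but the strand setting used in counting is not given in the sources used here.

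A like overlap exists for other genes described. Ccnd1-201 shared 28.1% of its stretches with other genes, mostly the opposite-strand gene listed as LTO1. The main Ccnd3 transcripts Ccnd3-201, Ccnd3-205 and Ccnd3-215 shared at least 30.3%, with Bysl the most frequent other gene. Over all Ccnd3 transcripts, 331 stretches also occurred in Bysl and 294 in the gene listed as Ccnd3-ps. Ccnd3-201, a coding transcript, had 331.6 and 246 estimated counts in PAD4-DN and 49.6 and 0 in WT. Another coding transcript, Ccnd3-205, had 335.5 and 252.8 counts in PAD4-DN and 412 and 624.5 in WT. The 21 annotated Ccnd3 transcripts overlap heavily and counts are divided among them by estimate, so the split is less certain than the gene's sum. The main transcripts of Ccnd2, Mtap, Rb1, E2f1 and Cdk6 shared at most 2.6%.

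Downstream of the kinases, Rb1, the pocket protein that restrains E2F factors, was at 8.58 and 11.5 TPM in PAD4-DN and at 7.03 and 9.72 TPM in WT. Its annotated coding transcript Rb1-201 held between 82.5% (PAD4-DN 1) and 97.1% (WT 1) of that level. E2f1, an activating E2F factor, was at 13.4 and 14.2 TPM in PAD4-DN and at 13.0 and 12.02 TPM in WT, and had the narrowest range of log2 CPM of the 8 transcribed genes, 0.20 (CPM is the count scaled to library size, not to gene length). Replicates of each group differed for Rb1 by more than the groups did. Rb1 had the widest range over the libraries among the 8 genes, 0.54 on the log2 CPM scale, against a median of 0.36 over the 9836 genes of at least 5 mean CPM. The 3 protein-coding genes with the most similar pattern over the 4 libraries were D10Wsu102e, Atp13a3 and Mettl4, at root mean square distances of 0.018, 0.020 and 0.024 in centred log2 CPM. With 4 libraries such likeness is a description only.

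The libraries held between 20036322 and 25327974 estimated counts. The line carried keratins Krt8 (131 to 178 TPM) and Krt18 (184 to 227 TPM). The keratin Krt19 was low, at 0.77 and 0.39 TPM in PAD4-DN and 1.83 and 1.76 TPM in WT. Counts of the epithelial markers Epcam and Cdh1 never exceeded 6.8 per library. Those of the lung markers Nkx2-1, Sftpb and Sftpc never exceeded 3, and Sftpc stayed at 0 throughout. Markers of other cells differed between libraries of the same group. The 10 macrophage markers summed to 101 and 19.6 CPM in PAD4-DN and 52.4 and 51.8 CPM in WT, the 6 pan-leukocyte genes to 22.15 and 2.01 CPM against 10.02 and 8.88 CPM, and Ptprc, which encodes CD45, was at 5.42 and 0.71 CPM against 2.20 and 1.71 CPM. Neutrophil markers summed to 20.9 and 9.98 CPM in PAD4-DN and 17.1 and 7.30 CPM in WT, T and NK cell markers to 9.22 and 5.32 CPM against 6.68 and 3.89 CPM, endothelial markers to 66.85 and 38.7 CPM against 41.8 and 34.6 CPM, and erythroid and platelet markers to 137 and 4.53 CPM against 41.45 and 4.997 CPM. Most of the endothelial sum was Pecam1, at 57.7 and 33.2 CPM in PAD4-DN and 33.4 and 26.8 CPM in WT. Most of the T and NK cell sum was Cd3d, at 8.10 and 4.23 CPM in PAD4-DN and 6.29 and 2.86 CPM in WT. Fibroblast markers summed to 14520 and 8568 CPM in PAD4-DN and 9113 and 10860 CPM in WT, most of it Col3a1. Col1a1 was at 652 and 16.9 CPM against 16.0 and 531 CPM. Dcn and Lum did not follow that order. Dcn was at 980.6 and 1045 CPM in PAD4-DN and 981 and 770 CPM in WT. Lum was at 343 and 681 CPM in PAD4-DN and 425 and 442 CPM in WT. Relative to the mean of the 4 libraries, the median log2 CPM of the 10 fibroblast markers was 0.61 and −0.96 in PAD4-DN 1 and 2. It was −0.48 and 0.71 in WT 1 and 2. PAD4-DN 1, the library with most leukocyte and erythroid signal, had the lowest CPM of Ccnd1, Ccnd2, Cdk6, Mtap and Rb1 and the highest of Ccnd3. WT 2, the library with the highest fibroblast median, had the highest CPM of Ccnd1, Ccnd2 and Cdk4. The part of these other cells in those values was not tested, and in bulk samples fewer cells of a type and less RNA per cell cannot be told apart. Cdkn2a stayed at 0 in PAD4-DN 1 as well.

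The comparison of the genotypes asked whether levels in the tumour cells differ when Padi4, which encodes a histone-citrullinating enzyme, is deleted in the host under Mrp8Cre. None of the 10 genes was called. With edgeR's quasi-likelihood test and Benjamini-Hochberg adjustment over all 13718 genes tested, 0 genes (0%) had an adjusted p under 0.05, while 2.65% had an unadjusted p under 0.05 (1.23% higher and 1.42% lower in PAD4-DN). Cdkn2a and Cdkn2b were too low to be tested, and the other 8 genes passed the filter on low counts. None of these 8 had an unadjusted p under 0.05 by edgeR, and the smallest adjusted p among them was 0.988. DESeq2 on the same genes called 11 of all genes and none of the 8.

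By CPM, Ccnd2, Ccnd1, Cdk4 and Mtap had both PAD4-DN libraries below both WT libraries. That makes 4 of 8 genes without overlap, against 17.4% of all tested genes in that direction and 32.8% in either. By TPM this held for Ccnd2 and Cdk4 only. Ccnd1 overlapped, with 122 TPM in PAD4-DN 2 and 117 TPM in WT 1. Mtap overlapped too, with 93.6 TPM in PAD4-DN 2 against 89.4 and 92.7 TPM in WT. Ccnd2 was at 237 and 271 CPM in PAD4-DN and at 298.4 and 335 CPM in WT, a log2 fold change of −0.32 (SE 0.15; edgeR adjusted p = 0.988), which was −0.23 without PAD4-DN 1. Ccnd1 was at 261 and 305.5 CPM in PAD4-DN and at 313 and 374.5 CPM in WT, with a log2 fold change of −0.28 (SE 0.16), which was −0.17 without PAD4-DN 1 and −0.14 without WT 2. Cdk4 was at 192 and 187 CPM in PAD4-DN and at 218.6 and 230.4 CPM in WT, with a log2 fold change of −0.25 (SE 0.12). Mtap was at 144 and 170 CPM in PAD4-DN and at 173 and 171 CPM in WT, so PAD4-DN 2 lay next to WT 2. Its log2 fold change was −0.13 (SE 0.14), and it was −0.015 without PAD4-DN 1 and −0.25 without PAD4-DN 2.

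The remaining 4 genes overlapped between the groups by CPM. By TPM E2f1 did not, at 13.4 and 14.2 TPM in PAD4-DN and 13.0 and 12.02 TPM in WT. Log2 fold changes were 0.14 (SE 0.19) for Ccnd3, 0.10 (SE 0.17) for Cdk6, 0.09 (SE 0.23) for Rb1 and 0.07 (SE 0.14) for E2f1. Each is smaller than its own standard error. Leaving out 1 library turned the sign of each: Ccnd3 was −0.14 without PAD4-DN 1, Cdk6 −0.08 without PAD4-DN 2, E2f1 −0.02 without WT 2, and Rb1 −0.20 without PAD4-DN 2 and −0.07 without WT 1. The median standard error over all tested genes was 0.20.

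**Figure D4:**
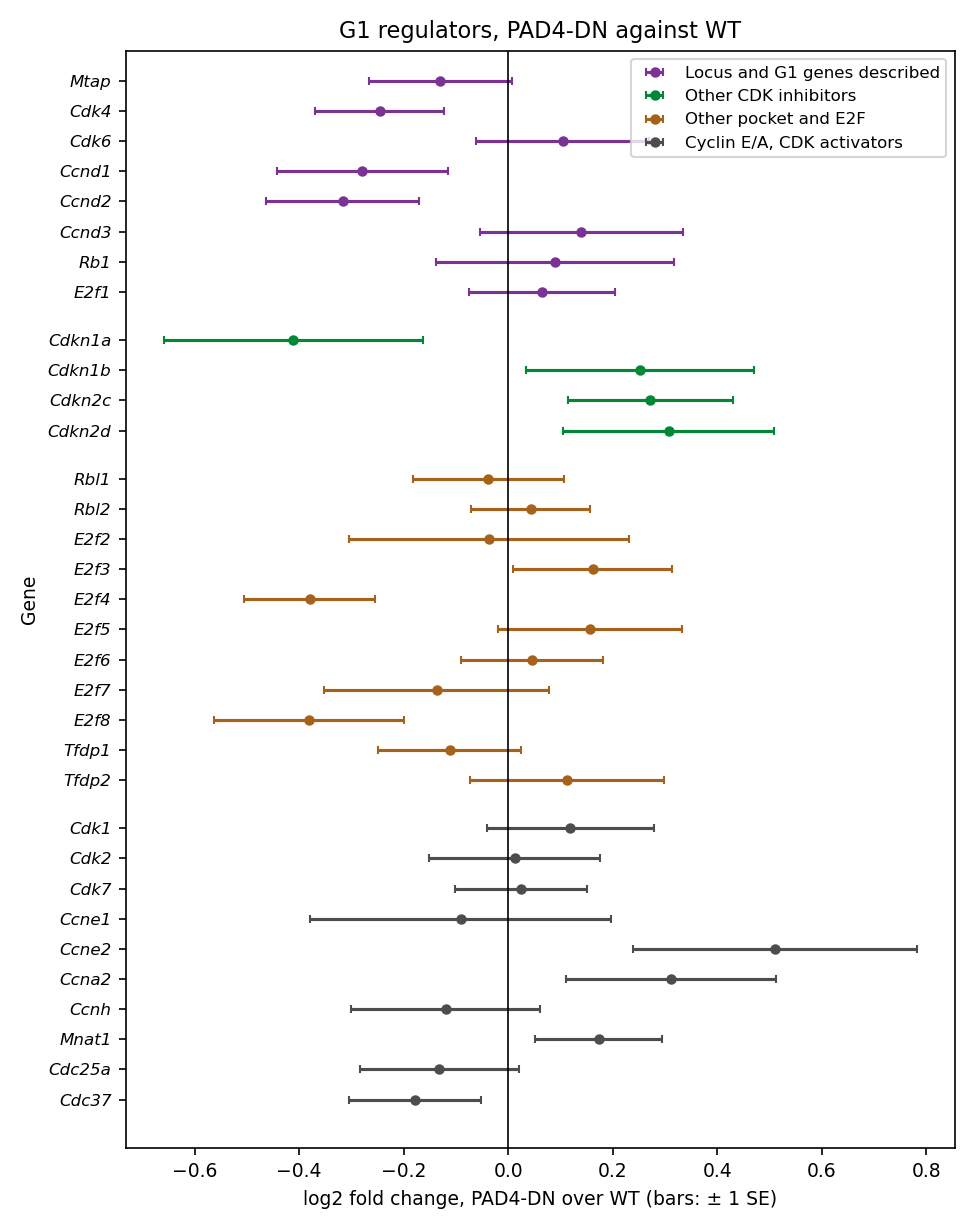
Log2 fold change of PAD4-DN over WT with bars of ± 1 SE for tested genes of 4 lists, from edgeR. Ccnd2, Ccnd1, Cdk4 and Mtap lie left of 0 and Ccnd3, Cdk6, Rb1 and E2f1 right of it, and none passed the test.

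Of the 5 other inhibitors of cyclin-dependent kinases, 4 were expressed at levels that could be tested. Cdkn1a, the p53-induced inhibitor p21, was the most abundant, at 100 and 157 TPM in PAD4-DN and 177 and 155 TPM in WT. Cdkn1b, which encodes p27, was at 29.3 and 39.6 TPM in PAD4-DN and 23.8 and 32.5 TPM in WT. The other Ink4 genes were expressed: Cdkn2c at 25.3 and 24.3 TPM in PAD4-DN and 16.45 and 22.0 TPM in WT, and Cdkn2d at 15.1 and 15.2 TPM in PAD4-DN and 12.0 and 10.5 TPM in WT. For Cdkn2c and Cdkn2d both PAD4-DN libraries were above both WT libraries, which 15.4% of all tested genes showed, with log2 fold changes of 0.27 (SE 0.16) and 0.31 (SE 0.20). Cdkn1c had 11.0 and 0 counts in PAD4-DN and 1 and 1 in WT and was not tested. None of the 4 tested inhibitors had an unadjusted p under 0.05.

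Relatives of Rb1 and E2f1 were all expressed and all 11 were tested. E2f4, a mostly repressive factor, was the most abundant E2F gene at 46.7 and 41.6 TPM in PAD4-DN and 54.2 and 56.2 TPM in WT. It was also the list's 1 gene with an unadjusted p under 0.05 (9.09%, against 2.65% of all tested genes). Its log2 fold change was −0.38 (SE 0.13, edgeR adjusted p = 0.988). E2f8, an atypical repressor, was at 30.7 and 41.2 CPM in PAD4-DN and 44.0 and 49.7 CPM in WT. E2f3 and E2f5 had log2 fold changes of 0.16 and 0.16. The list had 5 positive and 6 negative members and a median log2 fold change of −0.04, against 0.01 over all tested genes. The median was 0.07 without PAD4-DN 1 and −0.15 without PAD4-DN 2.

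Genes acting after Cdk4 and Cdk6 showed no called change either. In the list of cyclin E and A kinases and CDK activators, 0 of 10 genes had an unadjusted p under 0.05, with a median log2 fold change of 0.02, and −0.05 without WT 1 or 0.15 without WT 2. Ccne2, a cyclin E gene, was at 17.9 and 29.8 CPM in PAD4-DN and 15.1 and 18.4 CPM in WT, and Ccna2, the S-phase cyclin A, at 58.8 and 62.3 CPM against 39.7 and 57.9 CPM. Cdc37, a chaperone partner that folds Cdk4, was at 187 and 188 CPM in PAD4-DN and 222 and 203 CPM in WT. Mnat1, an assembly factor of the CDK-activating kinase, was at 52.4 and 51.9 CPM in PAD4-DN and 48.3 and 44.1 CPM in WT. Among 8 ubiquitin ligase genes and partners that control G1 proteins, 0 had an unadjusted p under 0.05, and the median was 0.03, or −0.01 without WT 1. Fbxw7, which targets cyclin E, had a log2 fold change of 0.27 (SE 0.16), Fbxo31 −0.23 (SE 0.18), Gsk3b 0.17 (SE 0.14) and Cks1b −0.11 (SE 0.12).

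Among E2F target genes of DNA synthesis none was called. Of 27 tested genes, 21 had a negative log2 fold change, against 48.4% of all tested genes, and the median was −0.11. By CPM, in 10 of 27 genes both libraries of PAD4-DN were lower than either of WT (37.0%, against 17.4% of all tested genes). Of these, Mcm6, Mcm7, Chaf1a, Pole and Uhrf1 overlapped between the groups by TPM. An unadjusted p under 0.05 by edgeR was found for 3 genes, all below WT (11.1%, against 2.65% of all tested genes). These were the licensing factor Cdt1, at 27.9 and 28.9 CPM in PAD4-DN and 36.2 and 38.3 CPM in WT, Gins2 (23.9 and 23.3 CPM against 29.7 and 32.5 CPM) and Mcm3 (108.2 and 115.4 CPM against 135 and 141.8 CPM). Mcm2, at 77.4 and 87.2 CPM in PAD4-DN and 96.3 and 109 CPM in WT, was next. The median was −0.24 without WT 1, −0.19 without PAD4-DN 2, −0.07 without WT 2 and −0.03 without PAD4-DN 1. On the log2(TPM + 1) scale it was −0.034, where the median over all genes was 0.06.

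The p53 side of the locus and the repressors of Cdkn2a were compared in the same way. Trp53, the tumour suppressor that Arf protects, was at 119.7 and 121.5 CPM in PAD4-DN and 159.4 and 161.7 CPM in WT, a log2 fold change of −0.41 (SE 0.11; edgeR adjusted p = 0.988). It was the 1 gene of 6 in the Arf-Mdm2-p53 list with an unadjusted p under 0.05 (16.7%, against 2.65% of all tested genes). Mdm2, the p53 ligase that Arf inhibits, was at 89.4 and 117 CPM in PAD4-DN and 124 and 103.5 CPM in WT, and Npm1, a nucleolar partner of Arf, at 1186 and 1541 CPM against 1665 and 1607 CPM. Mdm4, a relative of Mdm2, had a log2 fold change of 0.18 (SE 0.14). The list's median was −0.13, and it was 0.02 without WT 1, −0.02 without PAD4-DN 1 and −0.28 without WT 2. Of 11 genes known to repress Cdkn2a, 9 had a positive log2 fold change, against 7049 of 13718 tested genes, with a median of 0.17, or 0.10 without PAD4-DN 2 and 0.27 without WT 1. Eed, a Polycomb subunit, was the list's 1 gene with an unadjusted p under 0.05 (9.09%, against 2.65% of all tested genes). Eed was at 19.0 and 19.0 CPM in PAD4-DN and 5.275 and 3.81 CPM in WT, a log2 fold change of 2.06 (SE 0.23, edgeR adjusted p = 0.988). Scaled for length the difference was smaller, with 35.3 and 39.1 TPM in PAD4-DN and 19.3 and 12.1 TPM in WT. Bmi1, the Polycomb repressor best known for acting on Cdkn2a, was at 124 and 158 CPM in PAD4-DN and 115 and 117 CPM in WT. Rnf2 was at 122.5 and 163.6 CPM in PAD4-DN and 124.4 and 110.0 CPM in WT, and Tbx3 had a log2 fold change of 0.17 (SE 0.20). Cdkn2a itself was at 0 in both groups.

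Around Mtap, genes of methionine salvage and polyamine synthesis were all expressed. Of 14 tested genes, 11 had a negative log2 fold change (48.4% over all tested genes) with a median of −0.19. By CPM, 9 (64.3%) had both PAD4-DN libraries below both WT libraries, against 17.4% of all tested genes. By TPM only Mri1, Srm, Aprt and Pnp did. Enoph1, Mat2b, Wdr77 and Odc1 overlapped by TPM. Prmt5 was above WT by TPM, at 60.9 and 60.9 TPM in PAD4-DN and 54.8 and 55.5 TPM in WT. Srm, spermidine synthase, which makes the substrate of Mtap, was at 52.5 and 47.2 CPM in PAD4-DN and 65.1 and 73.2 CPM in WT, a log2 fold change of −0.47 (SE 0.13; edgeR adjusted p = 0.988). It was the list's 1 gene with an unadjusted p under 0.05 (7.14%, against 2.65% of all tested genes). Odc1, ornithine decarboxylase, was at 367.1 and 430.5 CPM in PAD4-DN and 448.7 and 553.1 CPM in WT. Aprt, which recycles the adenine that Mtap releases, was at 89.8 and 91.1 CPM in PAD4-DN and 114 and 102 CPM in WT. Pnp, a purine phosphorylase, was at 31.5 and 34.0 CPM in PAD4-DN and 34.6 and 44.3 CPM in WT. The median of this list lay between −0.19 and −0.16 whichever library was left out. PAD4-DN 1, the library with most leukocyte and erythroid signal, had the lowest median of the methionine, E2F target and Arf-Mdm2-p53 lists, at −0.12, −0.15 and −0.16 relative to the mean of all libraries (log2 CPM), and the part of other cells in this was not tested.

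**Figure D5:**
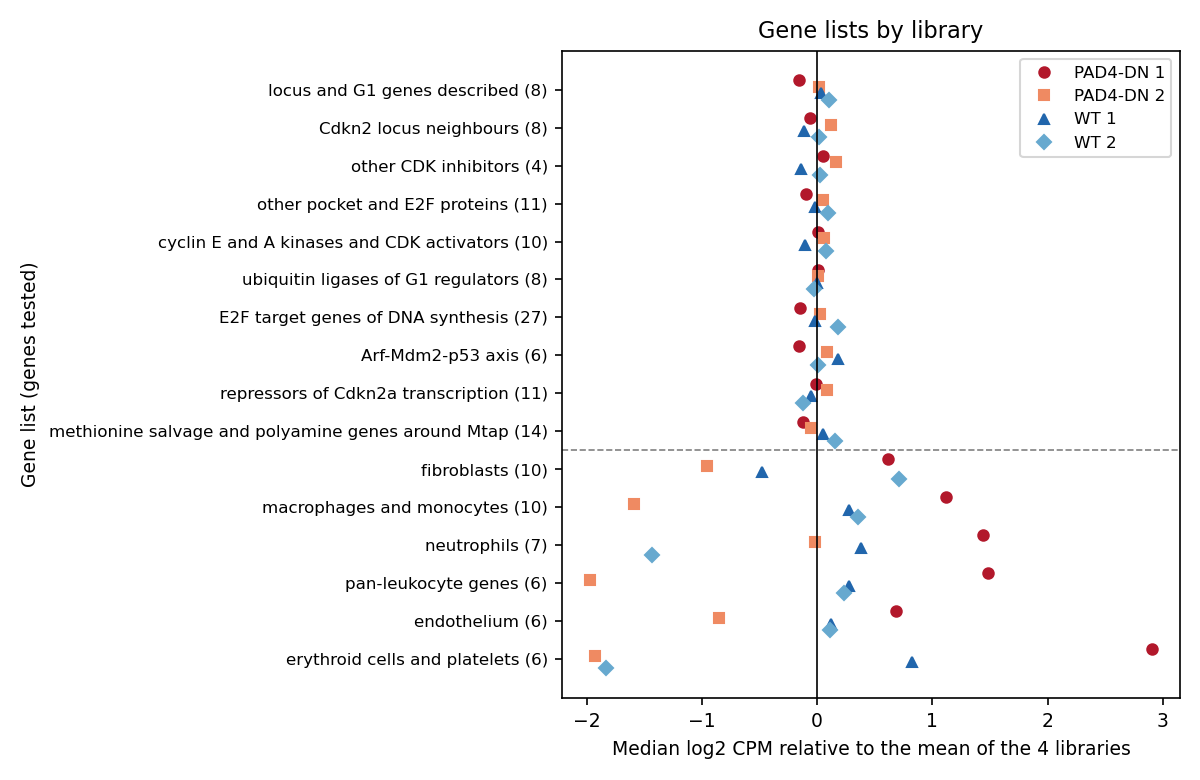
Median log2 CPM of each gene list in each library, set against its 4-library mean, with the number of tested genes in brackets and marker lists of other cell types under the dashed line. The lists above the line stay within 0.18 of the mean, while those of other cell types spread by up to 2.90.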

How the data were processed

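Per the file headers, the authors deposited 1 kallisto table per library with transcript length, effective length, estimated counts and TPM for 117486 transcripts. The submitters' processing notes name kallisto and GRCm39. Version, annotation release and strand setting were not given in the sources used here. The deposited estimated counts are not normalized, and the deposited TPM values are scaled for effective length. Transcripts were matched without version to GENCODE M21 for names (116408 matched, 1078 did not), and counts and TPM were summed per gene. Rounded counts of 13718 genes kept by filterByExpr were compared, PAD4-DN over WT, with edgeR 4.0.16 (R 4.3.3, TMM, quasi-likelihood test, Benjamini-Hochberg at 0.05). Alternatives were DESeq2 1.42.0, limma 3.58.1 (voom, and trend on log2(TPM + 1) and log2(TPM + 0.1)), other scaling, filters and blocks, and leaving out libraries. Shares were compared by exact permutation. The genes and lists were chosen with earlier results of these data known. Besides the 10 genes, those named were neighbours of the locus, the 4 smallest p of each list, and 3 genes most like Rb1.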

Additional observations from a re-analysis of the deposited data

How the results depend on the processing

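The 2 libraries a group limited precision (median standard error 0.20 on the log2 scale). No gene of the locus or of G1 was called under any alternative. The count of called genes was 0 by edgeR (364 at an unadjusted p under 0.05) and by limma-voom, 11 with DESeq2 (364 unadjusted), 10 without the low-count filter (737 unadjusted) and 0 to 2 with 1 library left out, the 2 being without WT 2; Ccnd2 reached an unadjusted p of 0.0448 with DESeq2 and of 0.0489 without PAD4-DN 2, Ccnd3 of 0.0327 without PAD4-DN 2, and Cdk4 of 0.0327 with effective length offsets. Same-numbered libraries deviated in opposite directions from their group means (r = −0.40 over 9836 genes). With 2 libraries per group these deviations mirror each other, so libraries of crossed numbers deviated together (r = 0.40). No label says that a replicate number marks a shared litter, batch or day, so the numbers are not taken to pair the libraries. With a replicate block 0 genes were called and the median for repressors of Cdkn2a was 0.13; a crossed block, added after the data were seen, called 0 genes and gave 0.14. That median was also 0.12 with limma-voom and 0.10 with effective length offsets. The pocket and E2F median was 0.075 with effective length offsets, 0.14 with log2(TPM + 1) and 0.15 with log2(TPM + 0.1). On those TPM scales, where the median over all genes was 0.06 and 0.07, the other medians were 0.172 and 0.186 (locus neighbours), −0.034 and −0.037 (E2F targets), 0.32 and 0.34 (CDK inhibitors), 0.18 and 0.19 (repressors), 0.13 and 0.14 (cyclin E and A), 0.10 and 0.10 (ubiquitin ligases), −0.033 and −0.034 (Arf-Mdm2-p53) and −0.10 and −0.10 (methionine salvage). The causes were not tested.

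With 1 library left out, medians ran from −0.021 to 0.21 for locus neighbours, 0.085 to 0.31 for CDK inhibitors, −0.15 to 0.067 for pocket and E2F genes, −0.054 to 0.15 for cyclin E and A, −0.013 to 0.035 for ubiquitin ligases, −0.24 to −0.031 for E2F targets, −0.28 to 0.019 for Arf-Mdm2-p53, 0.10 to 0.27 for repressors and −0.19 to −0.16 for methionine salvage. Log2 fold changes ran from −0.25 to −0.015 for Mtap, −0.28 to −0.21 for Cdk4, −0.40 to −0.14 for Ccnd1, −0.41 to −0.23 for Ccnd2, −0.14 to 0.38 for Ccnd3, −0.079 to 0.27 for Cdk6, −0.20 to 0.33 for Rb1 (−0.072 without WT 1) and −0.021 to 0.16 for E2f1. Share differences ran from −4.36 to 0.61 points for Ccnd1, −3.99 to −1.70 for Ccnd2, 1.09 to 8.36 for Ccnd3, −3.68 to −1.85 for Cdk4 and 1.85 to 3.68 for Cdk6. In shares of estimated counts the differences were −1.67 points for Ccnd2, −5.88 for Cdk4 and 5.88 for Cdk6.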

Other observations

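Cdc45, a helicase loading partner among the E2F target genes, was looked at after its values were seen, because its libraries differed widely. It was at 207 and 227 CPM in PAD4-DN and at 332 and 43.1 CPM in WT. In PAD4-DN 1 and 2 and in WT 1, most of that lay in Cdc45-204, an annotated transcript with a retained intron. Cdc45-204 had 3779 and 4724 estimated counts in PAD4-DN and 7005 and 449 in WT. The coding transcript Cdc45-201 had 416 and 588 counts in PAD4-DN and 453 and 619 in WT, so it was not low in WT 2. The other coding transcript with reads in every library, Cdc45-202, had 33.2 and 101.1 counts in PAD4-DN and 87.8 and 15.3 in WT.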
